A study of Rattus norvegicus with 36 samples.

Results

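The chemokines and lymphotoxins that organise lymphoid tissue were followed in the rat lung after instillation of the crystalline silica DQ-12. The 7 genes were taken by name from the array annotation, among non-control probes, and are Cxcl13, Ccl19, Ccl21, Ccr7, Cxcr5, Lta and Ltb. They held 8 of the 45598 non-control probes, and 7 of the 25597 gene names. The rule used gene names alone, although the genes were picked with earlier results of these data known. All 8 probes passed the filter on dim probes, and all 7 genes were tested among 23721 genes.

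Female Sprague Dawley rats, 13 weeks old at instillation, received 10 mg DQ-12 per rat through the trachea in sterile saline, or the vehicle alone. The accessory lobe of the lung was collected 1, 30 or 180 days later (D1, D30 and D180). Each of the 6 groups held 6 rats, and each rat gave 1 single-color array, 36 in all. Each day had its own vehicle group, so the comparisons at different days share no animals, and all animals were of 1 strain and sex at 1 dose. DQ-12 had been ground to restore its surface reactivity, and the study used it as a positive control for other particles. The probes covered 11 markers of lung epithelium and endothelium, such as Sftpc, and all 11 were well above background on all 36 arrays.

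In lymph nodes and spleen, stromal cells and dendritic cells secrete CXCL13, which draws B cells into follicles through the receptor CXCR5, and CCL19 and CCL21, which draw T cells and dendritic cells through CCR7. Lymphocytes make lymphotoxin alpha and lymphotoxin beta, whose membrane complex binds the lymphotoxin beta receptor on stroma, and the receptor acts through the kinase NIK (Map3k14) and the NF-kB subunits p52 (from Nfkb2) and RelB to induce these chemokines. The same circuit is known to build bronchus-associated lymphoid tissue in chronically inflamed lungs.

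The promoters of Cxcl13, Ccl19 and Ltb are shown because these are the genes whose signal moved most at D180, and because NF-kB binds DNA at short G-rich sites. RefSeq (build GRCr8) gave a promoter for 5 of the 7 genes. Those of Ccr7 and Cxcr5 are named only. Each line gives the 250 bases before the annotated start, 5′ to 3′ on the strand of the gene, and capitals mark a match to 1 of 3 motifs. Cxcl13 lies at chr14:13917921-13918170 on the minus strand, Ccl19 at chr5:61761165-61761414 on the minus strand, and Ltb at chr20:3634055-3634304 on the minus strand.
Cxcl13: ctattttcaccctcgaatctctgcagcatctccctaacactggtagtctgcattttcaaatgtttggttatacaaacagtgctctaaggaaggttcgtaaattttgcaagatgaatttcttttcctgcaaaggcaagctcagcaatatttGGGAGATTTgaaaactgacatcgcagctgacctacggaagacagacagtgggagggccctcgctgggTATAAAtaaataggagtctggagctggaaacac
Ccl19: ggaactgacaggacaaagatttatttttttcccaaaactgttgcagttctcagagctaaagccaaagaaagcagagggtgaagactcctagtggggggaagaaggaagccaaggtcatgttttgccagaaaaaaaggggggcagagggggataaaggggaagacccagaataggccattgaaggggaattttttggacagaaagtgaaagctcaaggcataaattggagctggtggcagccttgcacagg
Ltb: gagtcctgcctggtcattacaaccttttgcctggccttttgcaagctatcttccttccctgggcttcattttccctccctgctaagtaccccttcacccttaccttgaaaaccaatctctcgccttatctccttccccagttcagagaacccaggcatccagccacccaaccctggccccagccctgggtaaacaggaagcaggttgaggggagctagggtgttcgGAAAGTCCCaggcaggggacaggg
The motifs were chosen after the promoters had been read, and both strands were searched. GGGAGATTT, the start of the site at which RelB is known to bind the Cxcl13 promoter, lay 100 to 92 bases before the Cxcl13 start. It was found in 90 of 33469 RefSeq promoters of this length (0.269%) and in no other promoter of the 5 genes. GGGACTTTC, the start of the classical NF-kB site, lay on the opposite strand 24 to 16 bases before the Ltb start, and was found in 91 promoters (0.272%). TATAAA lay 33 to 28 bases before the Cxcl13 start and 27 to 22 bases before that of Lta, and 12.9% of all promoters held it. The 3 motifs did not overlap each other. A match describes letters in this window, and no protein binding was measured here.

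In the gene order of RefSeq, Tnf lay between Lta and Ltb on chromosome 20 with no other gene between them, and Ccl19 and Ccl21 lay on chromosome 5 with 1 annotated gene, LOC689481, between them. The arrays measured the genes with 60-base probes. The Cxcl13 probe (rn4, chr14:15127379-15127438) and the Ltb probe (rn4, chr20:3666709-3666768), coordinates that belong to the older build named in the array files, are shown as the sequences on which the values of these genes rest.
Cxcl13 probe: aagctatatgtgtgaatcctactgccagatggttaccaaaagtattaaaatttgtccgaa
Ltb probe: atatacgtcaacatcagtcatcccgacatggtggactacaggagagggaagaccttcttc
Only Cxcr5 had more than 1 probe. Its brighter probe was used, by the rule applied to every gene, and no array held the other well above background. Signals are log2 of the background-corrected intensity after quantile normalization, so a difference of 1 is a 2-fold change (FC). They are compared only within a probe. A gene was called a differentially expressed gene (DEG) when the FC was at least 2 and the adjusted p of limma's moderated test was below 0.05. In whole lung, more cells of a type and more RNA per cell cannot be told apart.

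Exposure to DQ-12 left the 7 genes without a call at D1 and D30, and 1 of them, Ccl19, was called at D180. The percentages of all tested genes called were 3.12%, 1.06% and 3.67% at D1, D30 and D180, respectively. Ltb passed the adjusted p alone at D30 and D180, with a FC under 2. Of all genes, 4.06% and 17.1% passed the adjusted p alone at these days, and 16.5% did at D1. Over the 7 genes, the log2 FC had a median of 0.13, 0.25 and 0.30 at the successive days, while over all genes it had a median of −0.01, −0.02 and −0.03. Cxcl13, Ccl21, Ccr7, Cxcr5 and Lta did not pass the adjusted p at any day.

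**Figure D1:**
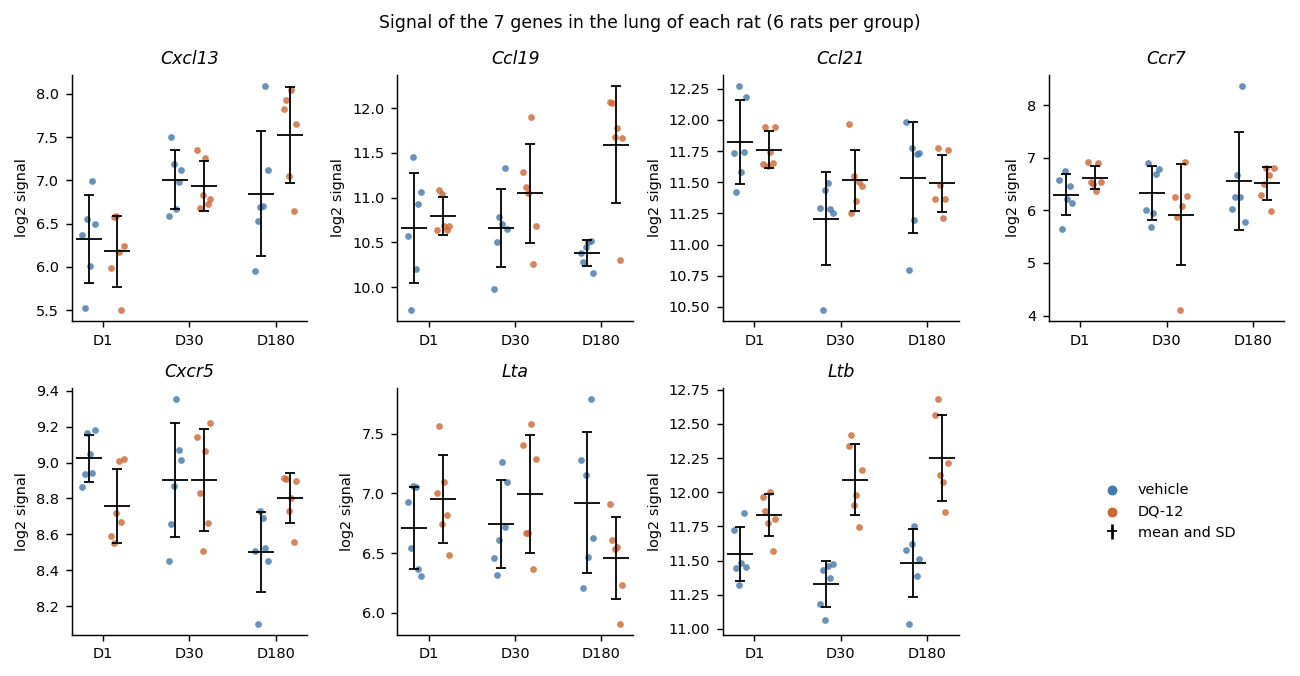
Log2 signal of each of the 7 genes in every rat, by day, with vehicle animals in blue and DQ-12 animals in orange (6 rats per group). Black bars give the mean and SD. The Ccl19 panel shows 5 of 6 exposed rats above every vehicle rat at D180, and the Ltb panel shows 6 of 6 above at D30 and D180.

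Ccl19, a ligand of CCR7 made by lymphoid stroma and mature dendritic cells, had the largest change of the 7 genes. At D180, the log2 signal of the vehicle rats ran from 10.16 to 10.52 with a median of 10.42. The DQ-12 rats ran from 10.30 to 12.07 with a median of 11.73. Of these, 5 formed a separate upper cluster, while DQ-12 replicate 5 lay within the vehicle range. The means were 10.38 ± 0.14 and 11.59 ± 0.66 (SD, n = 6 each), a log2 FC of 1.21 (SE 0.27, adjusted p = 0.00143, limma) and a FC of 2.31, with a 95% interval from 1.58 to 3.39. Without DQ-12 replicate 5, the log2 FC was 1.47 (adjusted p = 4.91e-05, limma). The array of this rat had the smallest share of spots well above background of the 36 arrays, 61.0% against up to 80.6%, and the part of this in its Ccl19 value was not tested.

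At D1, the Ccl19 signal of vehicle rats ran from 9.74 to 11.45 (median 10.75) and that of DQ-12 rats from 10.64 to 11.09 (median 10.68). At D30, the vehicle values ran from 9.98 to 11.33 (median 10.68) and the DQ-12 values from 10.26 to 11.90 (median 11.08). The groups overlapped at both days. The log2 FC was 0.13 at D1 (adjusted p = 0.796) and 0.39 at D30 (adjusted p = 0.548), both from limma. Ordered by mean, the 3 DQ-12 groups came first, from D180 to D30 to D1, followed by the vehicle groups of D1, D30 and D180. No neighbours in this order differed by more than the larger of their SDs. Such orders, here and for the genes below, compare days that were on separate slides and scan dates.

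Ccl21, the other ligand of CCR7, is made by lymphatic endothelium and lymphoid stroma. At D180, its vehicle values ran from 10.80 to 11.98 (median 11.73) and its DQ-12 values from 11.22 to 11.77 (median 11.42), so that the DQ-12 range lay inside the vehicle range. Its log2 FC came to −0.06, 0.31 and −0.04 at the 3 days, with adjusted p from 0.428 to 0.917 (limma). At D180, the 95% interval of the log2 FC was −0.41 to 0.32, which leaves out a 2-fold change in either direction. The intervals at D1 (−0.43 to 0.30) and D30 (−0.06 to 0.67) left it out as well. The intervals of Ccl19 and Ccl21 at D180 did not overlap, although the difference between the genes was not tested.

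Cxcl13, the ligand of CXCR5, had its highest mean in the DQ-12 rats of D180. Vehicle values at D180 ran from 5.95 to 8.10 (median 6.70) and DQ-12 values from 6.64 to 8.05 (median 7.74). The groups overlapped, since vehicle replicate 5 was the highest of all 12 rats and DQ-12 replicate 5 was the lowest of its group. This gave a log2 FC of 0.68 (SE 0.28, 95% interval 0.11 to 1.24) with an adjusted p of 0.0937 (limma). The adjusted p was 0.0101 without vehicle replicate 5 (log2 FC 0.93) and 0.0296 without DQ-12 replicate 5 (log2 FC 0.86), and 0.0254 with the scan date as a block, with no setting reaching a FC of 2 and that adjusted p together. At D1 and D30, the log2 FC was −0.14 and −0.07 (adjusted p = 0.788 and 0.968, limma). Over the 6 groups, the lowest means were those of D1 (6.18 in DQ-12 and 6.32 in vehicle rats), and no neighbouring groups differed by more than the larger SD.

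Neither receptor passed the test at any day. Cxcr5, carried by mature B cells and follicular helper T cells, ran from 8.10 to 8.73 (median 8.51) in vehicle rats and from 8.56 to 8.92 (median 8.85) in DQ-12 rats at D180. Although 4 of 6 exposed rats exceeded every vehicle rat, the ranges overlapped. Its log2 FC was 0.30 (SE 0.13, adjusted p = 0.128, limma). At D1, the difference ran the other way, with 4 of 6 DQ-12 rats below all vehicle rats and a log2 FC of −0.26 (adjusted p = 0.19, limma), and at D30 it was 0.00 (adjusted p = 1). The vehicle group of D180 had the lowest Cxcr5 mean (8.50), below its neighbour in the order, DQ-12 at D1 (8.76), by more than the larger SD.

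Ccr7, the receptor of CCL19 and CCL21 on naive T cells and mature dendritic cells, was well above background on 35 of 36 arrays. The exception was DQ-12 replicate 3 of D30, at 4.10, while the other DQ-12 rats of D30 lay between 5.88 and 6.92. Ccr7 had a log2 FC of 0.33, −0.42 and −0.04 at the 3 days, with adjusted p from 0.588 to 0.958 (limma). At D180, vehicle values ran from 5.78 to 8.37 (median 6.25), with 8.37 in replicate 5, and DQ-12 values from 5.99 to 6.80 (median 6.59). The 95% interval at D180 was −0.76 to 0.67.

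The lymphotoxin genes gave different results. Ltb, which anchors the lymphotoxin complex to the membrane, ran from 11.06 to 11.47 (median 11.40) in vehicle rats and from 11.74 to 12.42 (median 12.07) in exposed rats at D30. At D180, the ranges were 11.04 to 11.76 (median 11.55) and 11.86 to 12.68 (median 12.17). At both days, 6 of 6 exposed rats exceeded every vehicle rat, a separation upwards that 1.83% of all genes showed at D30 and 3.88% at D180. The means were 11.33 ± 0.17 and 12.09 ± 0.26 at D30, and 11.48 ± 0.25 and 12.25 ± 0.31 at D180 (SD, n = 6 each). The log2 FC was 0.76 at D30 (SE 0.14, adjusted p = 0.000466) and 0.77 at D180 (SE 0.14, adjusted p = 8.04e-05), both from limma, that is, a FC of 1.70 with 95% intervals of 1.40 to 2.05 and 1.41 to 2.06. At D1, the values overlapped, with medians of 11.47 in vehicle and 11.84 in DQ-12 rats and minima of 11.32 and 11.57, and a log2 FC of 0.28 (adjusted p = 0.155, limma).

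Ordered by mean, the 3 DQ-12 groups of Ltb stood above the 3 vehicle groups, with DQ-12 at D1 (11.83) above the vehicle group of D1 (11.55) by more than the larger SD, and no other neighbours apart by that much. Lta encodes the secreted subunit. At D180, its vehicle values ran from 6.21 to 7.79 (median 6.89) and its DQ-12 values from 5.91 to 6.91 (median 6.55), and the groups overlapped. Its log2 FC was 0.24, 0.25 and −0.46 at D1, D30 and D180 (adjusted p = 0.558, 0.716 and 0.214, limma), with a 95% interval of −0.96 to 0.03 at D180. No neighbouring groups of Lta differed by more than the larger SD.

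**Figure D2:**
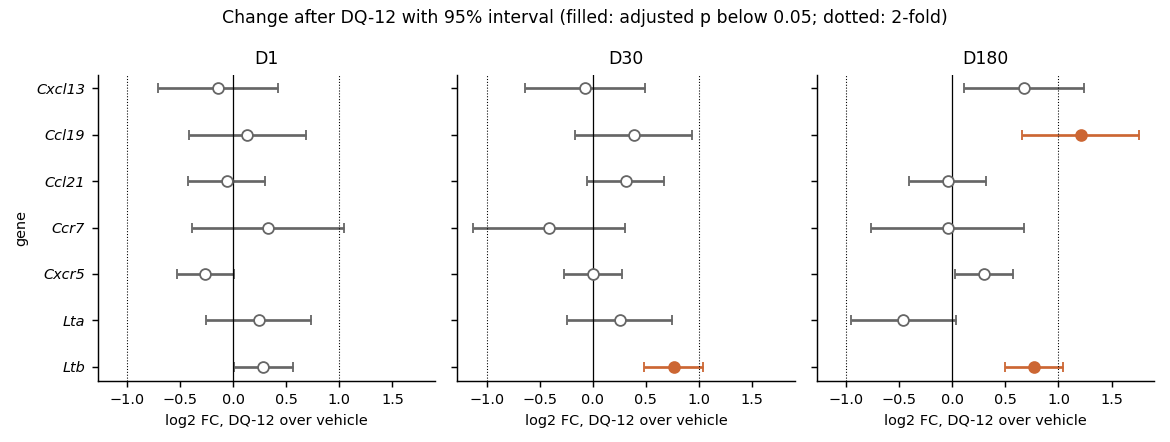
Log2 FC of DQ-12 over vehicle with its 95% interval for the 7 genes at D1, D30 and D180. Filled points passed the adjusted p, which were Ltb at D30 and D180 and Ccl19 at D180, and dotted lines mark a 2-fold change, which Ccl19 at D180 passed with 1.21.

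Whether the changes differed between days was tested as a difference of changes. None of the 7 genes passed the thresholds for D30 against D1, D180 against D30 or D180 against D1, where 0.953%, 0.139% and 1.6% of all genes did. The lowest adjusted p were those of D180 against D1 for Cxcr5 (difference of log2 FC 0.56, adjusted p = 0.0807) and Ccl19 (difference 1.07, adjusted p = 0.104), both from limma. Ccl19 passed when vehicle replicate 2 of D1 (difference 1.26, adjusted p = 0.0468) or DQ-12 replicate 5 of D180 (difference 1.33, adjusted p = 0.0191) was left out. The Ltb change was 0.76 at D30 and 0.77 at D180, a difference of 0.01 with a 95% interval of −0.38 to 0.40.

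Slides and scan dates were spread unevenly over the groups, with 19 slides and 11 scan dates. Arrays of different days were on separate slides and scan dates. Levels of groups of different days therefore cannot be told apart from differences between slides or scan dates. At D1, all DQ-12 arrays were scanned on a date shared with 1 vehicle array, so beyond that 1 array, scan date and exposure cannot be told apart at this day. At D30, both dates held both groups, and the Ltb difference was 0.38 on the date with 4 vehicle arrays and 1 DQ-12 array and 0.90 on that with 2 and 5. At D180, 1 date held 3 arrays of each group. On it, the Ccl19 values were 10.39 to 10.51 in vehicle and 11.68 to 12.07 in DQ-12 rats, the Ltb values 11.58 to 11.76 and 12.12 to 12.68, and the Cxcl13 values 5.95 to 6.70 and 7.05 to 7.94. These 3 genes did not overlap on that date, where 12.2% of all genes had the 3 DQ-12 arrays above the 3 vehicle arrays. On a further date with 1 array of each group, DQ-12 replicate 5 and vehicle replicate 2, the differences were 0.02 for Ccl19, 0.82 for Ltb and 0.11 for Cxcl13. With the slide as a block, Ccl19 and Ltb at D180 no longer passed (log2 FC 1.56 and 0.81, adjusted p = 0.178 and 0.177, limma), where that fit rested on the 1 slide that held an array of each group.

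**Figure D3:**
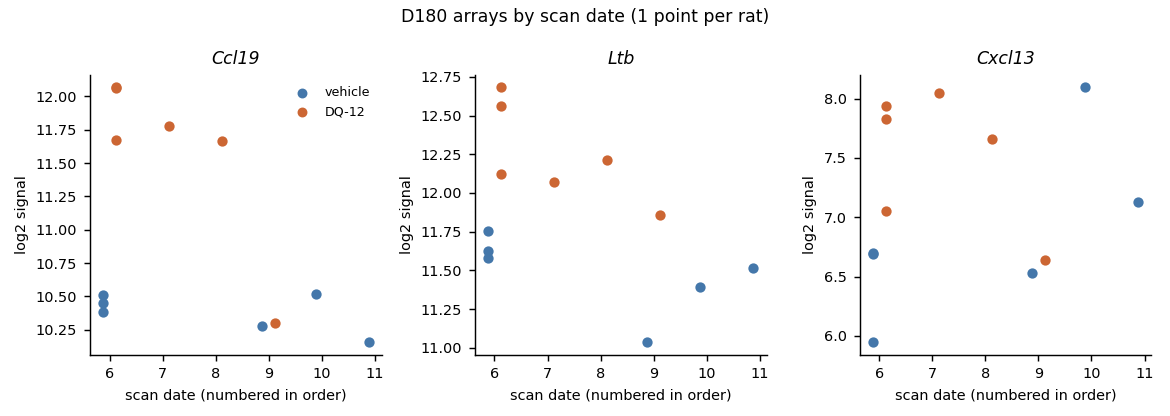
Log2 signal of Ccl19, Ltb and Cxcl13 at D180 by scan date (numbered in order), with vehicle rats in blue and DQ-12 rats in orange. On date 6, the 3 DQ-12 arrays lie above the 3 vehicle arrays for each gene, as for 12.2% of all genes, and on date 9 the single arrays of the groups differ by 0.02 for Ccl19 and 0.82 for Ltb.

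The genes around this circuit were described from lists of 124 names, of which 122 were on the array and 120 were tested. At D1, 4 were called higher and 1 lower, at D30 8 higher, and at D180 22 higher and 1 lower, or 4.17%, 6.67% and 19.2% of the list. Of all genes, 2.04%, 0.923% and 2.89% were DEGs upwards at the successive days, and 1.07% and 0.78% were DEGs downwards at D1 and D180. The median change of these genes (log2 FC) went from 0.03 over 0.05 to 0.28. The lists hold cytokines and activation genes that were chosen with earlier results of these data known, so that the share cannot be read as a test. The following genes are mainly the called genes with the largest changes of each list, and others were named with their values known.

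Of the 13 genes of the lymphotoxin and NF-kB pathway, none was a DEG at D1, 1 was at D30 and 3 were at D180, all higher. Tnf, which lies between Lta and Ltb, went from 9.61 ± 0.44 to 10.96 ± 0.42 at D30 (log2 FC 1.34, adjusted p = 2.78e-05) and from 9.70 ± 0.20 to 11.01 ± 0.44 at D180 (log2 FC 1.31, adjusted p = 6.95e-06), with 6 of 6 DQ-12 rats above all vehicle rats at each day. Birc3, an inhibitor of apoptosis that is itself an NF-kB target, had a log2 FC of 1.12 at D180 (adjusted p = 6.89e-06), and Tnfrsf1b, a receptor of TNF and soluble lymphotoxin alpha, of 1.13 (adjusted p = 9.21e-10). Ltbr, the receptor of the membrane complex, stood at 13.03 ± 0.19 and 13.07 ± 0.16 (log2 FC 0.04, adjusted p = 0.805), and Map3k14 had a log2 FC of 0.37 (adjusted p = 0.216). Relb and Nfkb2 passed the adjusted p with less than a 2-fold change (log2 FC 0.73 and 0.51, adjusted p = 0.0124 and 0.00573). These 4 genes were named after their values were seen, for their place below the lymphotoxin receptor. All these tests were limma's.

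The 20 other chemokines, guidance genes and decoy receptors included 3 DEGs at D1, 3 at D30 and 7 at D180. Ccl17 and Ccl22, ligands of CCR4, were higher at all 3 days, with Ccl17 at a log2 FC of 1.87, 2.5 and 2.76 and Ccl22 at 1.58, 1.59 and 1.76. Cxcl10, a CXCR3 ligand, reached 1.61, 1.78 and 2.98, and lost its call when 6 of the 12 rats of D1, or 8 of the 12 rats of D30, were each left out in turn (adjusted p up to 0.0862 and 0.144, limma). Cxcl11, another CXCR3 ligand, had a log2 FC of 2.98 at D180, from a vehicle group in which 2 of 6 arrays were well above background, and this was 0.96 with normexp background correction and 4.14 with the slide as a block, so that its size is uncertain. Gpr183 (1.35), the oxysterol receptor that positions B cells, and Cxcl9 (1.14) were also called at D180, and were named after their values were seen, as was the gene below.

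The 1 gene of these lists called lower at D180 was Ackr4, an atypical receptor that binds and removes CCL19 and CCL21. Its vehicle values ran from 11.01 to 11.45 (median 11.19) and its DQ-12 values from 9.48 to 10.54 (median 10.25). All 6 DQ-12 rats lay below all vehicle rats, as was the case for 3.51% of all genes. The log2 FC was −1.03 (SE 0.14, adjusted p = 2.54e-06, limma). Leaving out vehicle replicate 5 or DQ-12 replicate 2 gave −0.98 and −0.89, just under a 2-fold change, with the adjusted p below the threshold. At D1, the DQ-12 rats of Ackr4 (9.95 to 10.81) also lay below the vehicle rats (10.88 to 11.33), with a log2 FC of −0.59 (adjusted p = 0.00416, limma), and 6.04% of all genes were separated downwards at that day. The log2 fold change of Ackr4 at D30 was −0.41 (adjusted p = 0.108, limma), or −0.89 (adjusted p = 0.000692) when the median of its probes was taken, and the adjusted p was 0.0317 with the replicate number as a block.

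**Figure D4:**
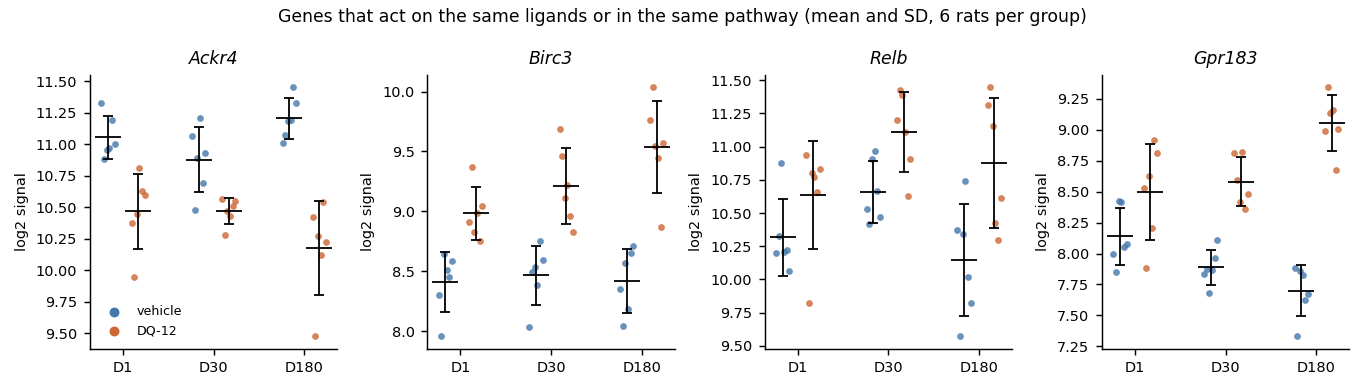
Log2 signal in every rat of Ackr4, which removes CCL19 and CCL21, of the NF-kB genes Birc3 and Relb, and of Gpr183, with mean and SD (6 rats per group). The Ackr4 values of DQ-12 rats lie below those of vehicle rats at D1 and D180, and the Birc3 values of DQ-12 rats lie above them at each day, a separation upwards that 5.28% of all genes showed at D1.

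Cells that carry the receptors were described by their own markers. None of 14 B cell genes was called at any day, with a median log2 FC of −0.29, −0.31 and −0.04 at D1, D30 and D180, and 11 of the 14 were well above background on all arrays. The mean over this list ran from 7.84 to 8.26 in vehicle rats and from 7.68 to 8.36 in DQ-12 rats at D180. Ms4a1 (CD20) had a log2 FC of 0.19 at D180 (adjusted p = 0.594, limma). Of 12 plasma cell and germinal centre genes, whose median log2 FC at D180 was 0.15, 5 were called higher at that day, among them Jchain, which joins IgA and IgM chains, at a log2 FC of 2.27, Tnfrsf17 (BCMA) at 2.13 and Mzb1, a chaperone of plasma cells, at 2.05. Irf4 (1.46) and Gcsam (1.23) made up the remainder. At D30, Jchain alone of this list was called (log2 FC 1.36, adjusted p = 0.00556, limma).

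Of 17 T cell genes, 1 was called at D180, Icos, a co-stimulator of activated and follicular helper T cells. Its means were 7.94 ± 0.17 and 9.33 ± 0.21 (log2 FC 1.39, adjusted p = 1.8e-08, limma), and its log2 FC at D30 was 1.05, or 0.98 without vehicle replicate 3 and 0.94 without DQ-12 replicate 1. At D1, Pdcd1 was called lower (log2 FC −1.0), lost the call when 6 of the 12 rats were each left out in turn, and had the opposite sign, 0.0125, when the median of its probes was taken. Of 10 genes listed for mature dendritic cells, which carry CCR7, 4 were called higher at D180, as were 2.89% of all genes. They were Il12b (log2 FC 2.16), Cd274 (1.32), Cd86 (1.21) and Cd83 (1.07). The other 6, Lamp3 and Fscn1 among them, were not called, and the list median was 0.43. Of these 6, Zbtb46 passed the adjusted p downwards (log2 FC −0.56, adjusted p = 0.00482, limma). Which cells of the lung gave these signals was not tested. Without vehicle replicate 2, Cd86 had a log2 FC of 0.91 (adjusted p = 0.0543, limma). Only 2 of 6 vehicle arrays were well above background for Il12b at D180, and with normexp background correction Il12b and Cd86 had a log2 FC of 0.75 and 0.52. At D30, none of the vehicle arrays was well above background for Il12b. With vehicle values raised to the lowest signal well above background, Il12b was 2.49-fold higher at D30. With normexp its log2 FC at D30 was 0.45 and the call was lost, so that fold is not a firm minimum. Cd86 was called at D1 (1.35).

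Stroma and vessel genes that form the niche of these chemokines gave no call in 13 genes at any day. At D180, Pdpn, of fibroblastic reticular and alveolar type I cells, and Lyve1, of lymphatic endothelium, passed the adjusted p downwards with log2 FC of −0.49 and −0.78 (adjusted p = 0.000256 and 0.000514, limma). In all, 4 of the 13 passed downwards and 1, Fut7, upwards (log2 FC 0.87, adjusted p = 0.0023, limma), and the list median was −0.07. The lung epithelium and endothelium list had 0 of 11 genes called at D180, 5 passing the adjusted p downwards and 2, the surfactant protein genes Sftpa1 and Sftpd, passing it upwards, with a median log2 FC of −0.29 and list means of 15.78 to 16.01 in vehicle and 15.62 to 15.78 in DQ-12 rats. The part of these changes in the values above was not tested.

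Among 17 cytokines that induce lymphoid tissue or sustain B cells, Il17a and Tnfrsf11a (RANK) were called at D180 and Il21 at D30. No vehicle array of these days was well above background for Il17a or Il21. With vehicle values raised to the lowest signal well above background, Il17a was 1.72-fold and Il21 1.1-fold higher. Both calls were lost with normexp background correction (log2 FC 0.24 and 0.23), so these folds are not firm minima. Tnfrsf11a had a log2 FC of 1.06 and fell just under a 2-fold change when 1 of 3 rats was left out, vehicle replicate 1 (0.99), vehicle replicate 3 (0.98) or DQ-12 replicate 2 (0.96). The log2 FC of Tnfrsf11a was 0.46 with normexp and 0.78 with the slide as a block, so that its size is uncertain. Il7r, the receptor of interleukin 7 on lymphocytes, passed the adjusted p with a log2 FC of 0.90 (adjusted p = 1.08e-05, limma). Of 5 thymocyte genes, listed to detect thymus in the sample, Dntt was called at D180 (log2 FC 1.78), and 3 of 6 vehicle and 5 of 6 DQ-12 arrays were well above background for it. The median log2 FC of this list was 0.13, and none of its genes had all DQ-12 rats above all vehicle rats. Over the settings tried, the log2 FC of Dntt ran from 0.53 to 2.00, so that its size is uncertain.

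**Figure D5:**
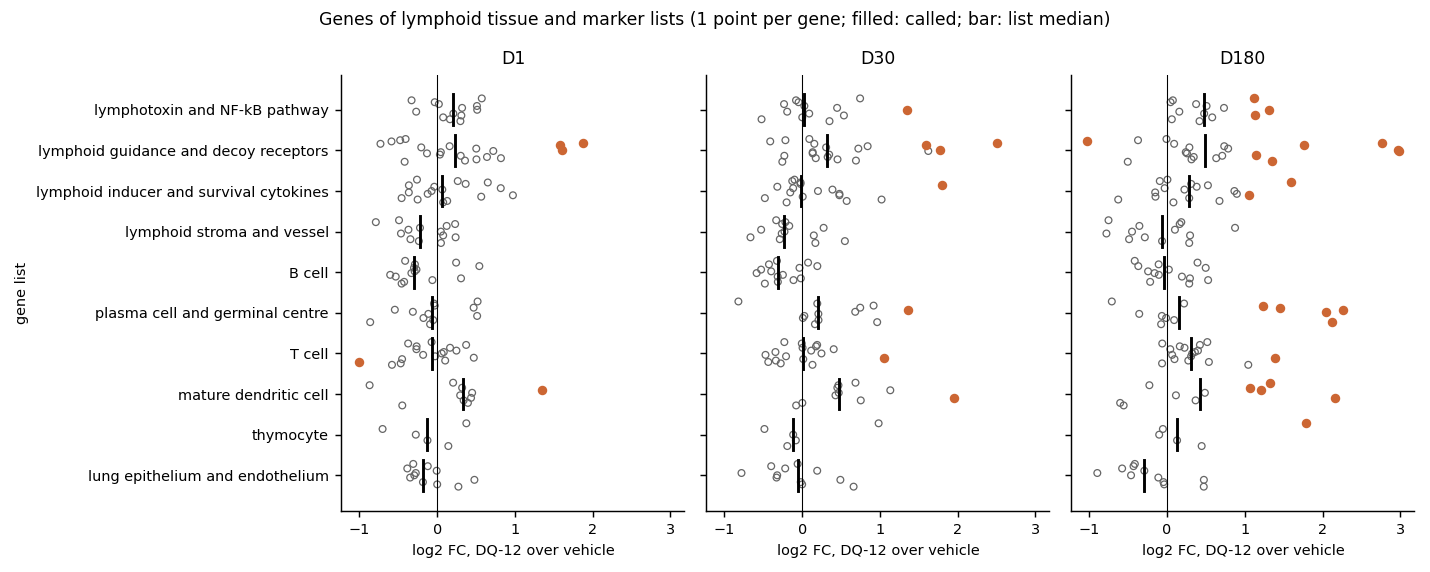
Log2 FC of DQ-12 over vehicle for the genes of each list at D1, D30 and D180, with 1 point per gene, filled where the gene was called, and a bar at the list median. At D180, called genes lie to the right in the plasma cell, dendritic cell and NF-kB lists, the guidance list has 6 to the right and Ackr4 to the left, and none of the B cell or stroma genes is filled.

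DQ-12 replicate 5 of D180, which held the lowest value of its group for 6 of the 7 members (all but Ccl21), was also the lowest DQ-12 rat for 11 of the 22 list genes called higher at that day. Without it, 23 list genes were called higher, against 22 with it.

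The genes whose signal ran most closely with each member over the 36 arrays were taken by Pearson's r from 23517 genes. The values are a description over arrays that share groups, slides and scan dates. For Ccl19 the closest gene was Birc3 (r = 0.79), followed by Thbs2 (0.77) and Lpxn (0.76). Birc3 also came first after the group means were subtracted (r = 0.70), followed by Noc3l (0.69) and Uggt2 (0.68). For Cxcr5 it was the B cell gene Ms4a1 (r = 0.78), while after subtraction Coro1c (0.75), Fndc9 (0.75) and Gpr132 (0.74) came first. For Ltb it was RGD1565410 (r = 0.91), followed by Rhbdl2 (0.88) and the chemokine Ccl1 (0.88). Cxcl13 ran with Zbp1 (0.79), B2m (0.75) and Tlr7 (0.75). After subtraction, it ran with the NF-kB subunit gene Rel (0.80), Mtg2 (0.74) and Eloa (0.72). The highest r were lower for Ccr7 (Sash3, 0.73), Lta (Afap1, 0.73) and Ccl21 (Slc25a54, 0.65). Among the members, Ccl19 ran with Ltb (r = 0.64) and Cxcl13 (r = 0.59), and after subtraction these values were 0.36 and 0.58.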

How the data were processed

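Per the file headers, the authors deposited 1 single-color Agilent Feature Extraction (12.0.1.1) file per rat, whose columns hold the fluorescence intensity of each spot. The values deposited for the series are on the log2 scale; across 1641055 values they differed by a median of 0.00177 from the processed intensities scaled to the 75th percentile of each array and centred on the median of each probe. From the intensities, log2 processed signals were averaged over spots of a probe without outlier spots (232 to 596 per array). Probes above the 95th percentile of 308 negative controls on at least 6 arrays were kept and quantile normalized, and the brightest probe stood for a gene. Feature Extraction reports background-corrected values, which makes dim probes noisy.

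Groups were fitted together in limma 3.58.1 (R 4.3.3), p-values were adjusted by Benjamini-Hochberg over 23721 genes, and calls needed a fold change of at least 2 and an adjusted p below 0.05, as in the study's methods. The batch variable of the study's correction was not given in the sources used here, and none was fitted; slide and scan date were tried as alternatives. Named genes are the 7 members and, per list and day, up to 3 called genes with the largest change. Others were named with their values known. Besides those marked where they appear, these are Irf4, Gcsam, Cd83, Il7r, Ms4a1, Pdpn, Lyve1, Zbtb46, Fut7, Sftpa1 and Sftpd, and Ccl22 at D180. Per member, the 3 genes with the highest correlation were taken. Members and lists were chosen with earlier results of these data known. On simulated data, 82%, 78.5% and 80.5% of 200 genes changed by 1.5 (log2, 23517 genes) were recovered at D1, D30 and D180. The simulated noise was independent between arrays, and the added change was larger than that of any member. In the data, the correlation was 0.39 within a slide and 0.25 within a scan date, so these rates do not describe the real arrays. Precision is limited by 6 rats per group, and nothing states that the rats were processed independently.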

Additional observations from a re-analysis of the deposited data

Results flagged for a closer look

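Of 134 group and gene combinations, 10 held a rat whose gap to its nearest neighbour exceeded Dixon's critical share of the group's range, where chance alone flags about 1 in 20 groups; 4 of them were among the 42 of the 7 genes. Among these, DQ-12 replicate 5 of D180 was low for Ccl19 (10.30, the others from 11.67 to 12.07), and vehicle replicate 2 of D30 was low for Ccl21 (10.47). Ccr7 was low in DQ-12 replicate 3 of D30 (4.10) and high in vehicle replicate 5 of D180 (8.37). Among the other genes at D180, the vehicle rats with a distant value were replicate 1 for Map3k14 (5.79), replicate 5 for Ccl22 (8.46) and replicate 6 for Pdpn (15.74), and DQ-12 replicate 5 was low for Il12b (5.46). DQ-12 replicate 6 of D1 was high for Ccl17 (10.31), and DQ-12 replicate 3 of D30 was high for Il21 (6.31), a gene well above background on 1 array at that day.

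By the adjusted p of limma's test alone, without the 2-fold threshold, the change after DQ-12 differed between days for 16 of 120 differences tested. None of these belonged to the 7 genes. The other genes were mostly named for a large change at some day, so the count partly follows from that choice. With the 2-fold threshold, 0.953%, 0.139% and 1.6% of all genes passed for D30 against D1, D180 against D30 and D180 against D1. Between D30 and D1, the log2 changes differed by 2.17 for Il21, 1.90 for Jchain and 0.95 for Gcsam. No array of D1 and no vehicle array of D30 held Il21 well above background, so that its value has no readable size. Between D180 and D1, the differences were 2.99 for Tnfrsf17, 2.81 for Jchain, 2.36 for Mzb1, 1.26 for Gcsam and 0.99 for Irf4 among plasma cell and germinal centre genes. They were 1.72 for Il12b, 1.12 for Cd274 and 0.75 for Cd83 among dendritic cell genes, and 1.54 for Pdcd1 and 0.92 for Icos among T cell genes. For Il7r, Gpr183 and Tnfrsf1b they were 1.02, 0.99 and 0.82, respectively. All these differences were upwards at the later day, a direction that naming genes for calls at D30 or D180 favours. The Pdcd1 difference rests in part on its lower signal at D1, where the log2 FC was 0.0125 with the median of probes. That call at D1 was also lost when 6 of the 12 rats were each left out in turn. With normexp background correction, the log2 FC of Il12b at D180 fell from 2.16 to 0.75. The sizes of the Pdcd1 and Il12b differences are therefore uncertain.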

How the results depend on the processing

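The call of Ccl19 at D180 was kept in 12 of 14 alternatives and whenever 1 rat was left out. It was lost with the slide as a fixed block (log2 FC 1.56, adjusted p = 0.178), which left 0 members called at D180, and with limma's test against a 2-fold change (treat), which also left 0. With a fold threshold of 1.5, Ltb was called too, giving 1 member at D30 and 2 at D180. Leaving out 1 rat gave 0 to 0 members at D1 and D30, 1 to 1 at D180, 0 to 0 for D30 against D1 and for D180 against D30, and 0 to 1 for D180 against D1. The other lymphoid genes (5, 8 and 23 called) ranged from 3 to 6, 6 to 10 and 21 to 24 when 1 rat was left out. Their counts at D1, D30 and D180 were 3, 5 and 14 with normexp, 0, 5 and 6 with the slide as a fixed block, and 0, 1 and 4 with treat. With the scan date as a fixed block they were 0 at D1 and 5 at D30, with the slide or scan date as a random block 3 and 2 at D1, with each day fitted alone 3 at D1, and with a fold of 1.5 they were 10 at D1 and 15 at D30. The 46 other named results include some that had no call to lose, such as Ltbr and Ms4a1. Normexp took the calls of 14 of the 46, Birc3 (0.99) and Ackr4 (−0.99) among them. The cause was not tested, other than that at D180 only 1 slide held both groups.

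Signs that turned belonged to differences that did not pass the test, apart from Pdcd1. With the slide and then the scan date as a fixed block, the log2 FC at D1 was −0.60 and −0.66 for Ccl19, −0.0285 and −0.12 for Ccr7 and −0.0315 and −0.11 for Lta. At D30 it was 0.0198 and 0.0521 for Ccr7 and −0.15 and −0.15 for Cxcr5, and at D180 0.17 and 0.055 for Ccl21, 0.0367 and 0.0994 for Ccr7 and −0.12 and −0.0155 for Ltbr. With the slide as a fixed block, Lta at D180 was 0.44. With the slide or scan date as a random block, Ccl19 at D1 was −0.12 and −0.0793 and Cxcr5 at D30 −0.0724 and −0.0895, and Ccl21 at D180 was 0.0077 with the slide. With the median of probes, Cxcr5 was −0.34 at D30 and −0.0429 at D180, and Pdcd1 0.0125 at D1. Leaving out 1 rat gave −0.0498 to 0.29 for Ccl19 at D1, −0.14 to 0.0283 for Ccl21 at D1, −0.19 to 0.0454 for Ccl21 at D180, −0.20 to 0.32 for Ccr7 at D180, −0.16 to 0.0285 for Cxcl13 at D30, −0.0887 to 0.0912 for Cxcr5 at D30 and −0.0053 to 0.0951 for Ltbr at D180.

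Same-numbered rats deviated together little (r −0.13 to 0.22, over 0.1 in 6 of 18 pairs), and the numbers were not used as pairs. Rats of different numbers were not compared in this way, so a pairing in handling was not tested. With the replicate number as a block, the counts were 0, 0 and 1 members and 5, 8 and 23 other genes, and the Ccl19 adjusted p at D180 was 0.00254.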
